A study of Homo sapiens with 34 samples.

Results

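Kruppel-like factors (KLFs) are zinc finger transcription factors, and 9 of them were followed here in a colorectal cancer cell line in which Wnt signalling can be blocked: KLF2, KLF3, KLF4, KLF5, KLF6, KLF9, KLF10, KLF11 and KLF16. They are 9 of the 19974 protein-coding genes in the RefSeq table of GRCh38.p14, taken by name. Every listed region that touched one of these genes or the 50 kb on either side was kept, and for KLF5 the 300 kb on either side, so that its distal enhancers were included. The cells were DLD1, a line from a colorectal adenocarcinoma, and all of them, in both conditions, carried a Tet-inducible transgene for dominant negative TCF7L2. Induced cells had 1 µg/mL doxycycline for 24 h and uninduced cells had no treatment. A line without the transgene given doxycycline is not among these groups, so effects of the drug and of the transgene cannot be told apart. Chromatin immunoprecipitation with sequencing (ChIP-seq) was done with antibodies to H3K27ac, an acetylated histone found at promoters and enhancers in use, and to RNA polymerase II (Pol II), with 2 samples per antibody and condition and 1 input per condition. Each condition and antibody has 1 deposited list of regions that serves both samples, so the comparison is between 4 lists, with no replicate error and no test. RNA-seq samples of the series are not analysed here.

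KLFs bind GC-rich sequences and CACCC boxes through zinc fingers at the end of the protein and differ in the partners that the rest of the protein recruits. In the intestine KLF5 is known for its expression in dividing crypt cells, and KLF4 for its expression in differentiated cells near the surface and for restraining division. Dominant negative TCF7L2 lacks the part that binds β-catenin and so blocks the activation of Wnt target genes, on which the dividing state of colorectal cancer cells depends.

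The H3K27ac lists held 79987 regions in induced cells and 78005 in uninduced cells, and the Pol II lists 50665 in induced cells and 57247 in uninduced cells. Pol II regions covered 56.7 Mb in induced cells and 70.9 Mb in uninduced cells, so the induced Pol II list was shorter over the whole genome. The sequencing depth was 40 to 55M single reads of 75 bp per sample, per the labels. As a check of the cell type, 12 of 12 colorectal epithelial marker genes had an H3K27ac summit within 1 kb in both conditions. For Pol II it was 12 of 12 in induced cells and 11 of 12 in uninduced cells, where CDX1 had none. Of 11 immune, stromal and endothelial markers, 8 had a summit in each of the 4 lists. A gene's place here is the percentile of its strongest summit, over the genes that 1 or both lists of the mark reach, ranked by −log10 q. The epithelial markers had a median H3K27ac place of 84.5 in induced cells and 88.5 in uninduced cells, and the other markers 32.7 in induced cells and 27.2 in uninduced cells, with genes that had no summit placed at 0. LYZ and COL1A2 were among those with no summit in any list.

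The promoter windows are shown for the genes where the Pol II or H3K27ac signal bears on the choice of start or on the base composition. RefSeq (GRCh38.p14) gave a promoter for 7 of the 9 genes, 9 windows in all, because KLF5 and KLF11 each had a pair of starts. Each line gives the 250 bases before a start, 5′ to 3′ on the gene's strand. Capitals mark exact matches on either strand, overlapping ones included. The letters CTTTGAT are the usual core bound by TCF factors, and CTTTGTT is a variant of that core. The letters CACCC are the box that KLFs bind, and GGGCGG is the GC box that SP factors and many KLFs bind. The letters TATAAA are the TATA box. The KLF5 windows were at chr13:73054726-73054975 (upstream start) and chr13:73058755-73059004 (downstream start), both on the plus strand, the KLF4 window at chr9:107489770-107490019 on the minus strand, the KLF9 window at chr9:70414658-70414907 on the minus strand, and the KLF2 window at chr19:16324576-16324825 on the plus strand.
KLF5 upstream start: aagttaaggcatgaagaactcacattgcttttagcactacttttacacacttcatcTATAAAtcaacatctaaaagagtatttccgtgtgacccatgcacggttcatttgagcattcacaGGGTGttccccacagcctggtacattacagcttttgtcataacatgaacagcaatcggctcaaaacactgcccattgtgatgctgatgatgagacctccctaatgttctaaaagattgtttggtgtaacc
KLF5 downstream start: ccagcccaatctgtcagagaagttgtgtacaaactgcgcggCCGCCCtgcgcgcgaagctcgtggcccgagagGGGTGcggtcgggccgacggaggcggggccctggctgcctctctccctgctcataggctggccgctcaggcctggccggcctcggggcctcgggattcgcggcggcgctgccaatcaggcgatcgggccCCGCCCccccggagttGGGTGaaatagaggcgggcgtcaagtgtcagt
KLF4: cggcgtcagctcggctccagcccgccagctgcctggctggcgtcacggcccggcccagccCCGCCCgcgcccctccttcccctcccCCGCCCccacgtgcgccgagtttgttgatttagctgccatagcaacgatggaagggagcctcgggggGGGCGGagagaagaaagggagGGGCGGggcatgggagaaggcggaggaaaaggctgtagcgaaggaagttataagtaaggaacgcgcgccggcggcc
KLF9: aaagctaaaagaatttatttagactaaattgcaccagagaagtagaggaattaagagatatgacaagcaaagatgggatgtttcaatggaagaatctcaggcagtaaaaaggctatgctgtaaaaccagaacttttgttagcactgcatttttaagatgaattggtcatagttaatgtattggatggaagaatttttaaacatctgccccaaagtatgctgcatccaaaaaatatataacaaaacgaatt
KLF2: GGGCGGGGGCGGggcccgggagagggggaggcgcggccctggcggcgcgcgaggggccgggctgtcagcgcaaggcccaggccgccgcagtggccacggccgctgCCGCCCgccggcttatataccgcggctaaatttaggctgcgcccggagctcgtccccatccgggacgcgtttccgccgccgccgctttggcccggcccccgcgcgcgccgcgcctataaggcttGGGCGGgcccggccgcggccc

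The windows fell into a GC-rich majority and a pair of AT-rich ones. The KLF5 upstream start had a GC content of 40.8% and the KLF9 start 32.4%, against 70.8% at the KLF5 downstream start, 69.2% at KLF4 and 80.0% at KLF2. The KLF16 window was the most GC-rich of the 9, at 86.4%. GGGCGG was found in 7 of the 9 windows, in all but the KLF5 upstream start and KLF9, and in 53.7% of 22156 promoter windows of the same length. CACCC was found in 3 of 9 windows, against 58.4% of all promoters, and both KLF5 starts held it. CTTTGAT was in 0 of 9 windows and in 1.78% of all promoters, and CTTTGTT was in 1 of 9, the upstream KLF11 start, and in 3.71% of all. TATAAA was in the window of the KLF5 upstream start alone among the 9, and in 8.9998% of all promoters. These are matches of letters, not sites.

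Over all 9 windows, H3K27ac was listed in slightly more and shorter pieces in induced cells. There were 178 H3K27ac regions with 455 summits in induced cells and 148 with 416 summits in uninduced cells. They covered 342.7 kb in induced cells and 327.0 kb in uninduced cells. Pol II had 92 regions with 171 summits in induced cells and 97 with 190 summits in uninduced cells, covering 109.0 kb in induced cells and 130.8 kb in uninduced cells. A region was without a partner when it shared not even 1 bp with a region of the other condition. Of the induced H3K27ac regions 33 of 178 had no partner (18.5%, Wilson 95% interval 13.5 to 24.9, against 12.3% over the whole list). Of the uninduced ones 12 of 148 had none (8.11%, 4.70 to 13.6, against 14.5%). For Pol II, 7 of 92 induced regions (7.61%, 3.73 to 14.9, against 10.8%) and 25 of 97 uninduced regions (25.8%, 18.1 to 35.3, against 30.4%) had no partner. The intervals cover counting error only and treat neighbouring regions as independent, so they serve as no test. The wide KLF5 window alone held 66 of the 178 induced H3K27ac regions and 16 of the 33 without a partner.

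The regions without a partner were weak ones. In the H3K27ac lists their median −log10 q was 3.34 in induced cells and 3.90 in uninduced cells. The strongest of them was 282 kb downstream of the KLF5 5′ end in induced cells, with a −log10 q of 13.9. When both lists were limited to a −log10 q of 5 or more, the H3K27ac shares without a partner were 9.52% in induced cells and 9.92% in uninduced cells, against 9.04% in induced cells and 13.1% in uninduced cells over the whole lists so limited. A strong region is one that ranked within the top 20000 by −log10 q. The windows held 48 strong H3K27ac regions in induced cells and 44 in uninduced cells, and 40 strong Pol II regions in induced cells and 37 in uninduced cells. None of them (for H3K27ac 0 of 48 induced and 0 of 44 uninduced, for Pol II 0 of 40 induced and 0 of 37 uninduced) lacked an overlap with the 40000 highest of the other list. The same calls over the whole lists were rare, at 0.005% in induced and 0.235% in uninduced cells for H3K27ac, and 0.065% in induced and 0.515% in uninduced cells for Pol II.

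**Figure D1:**
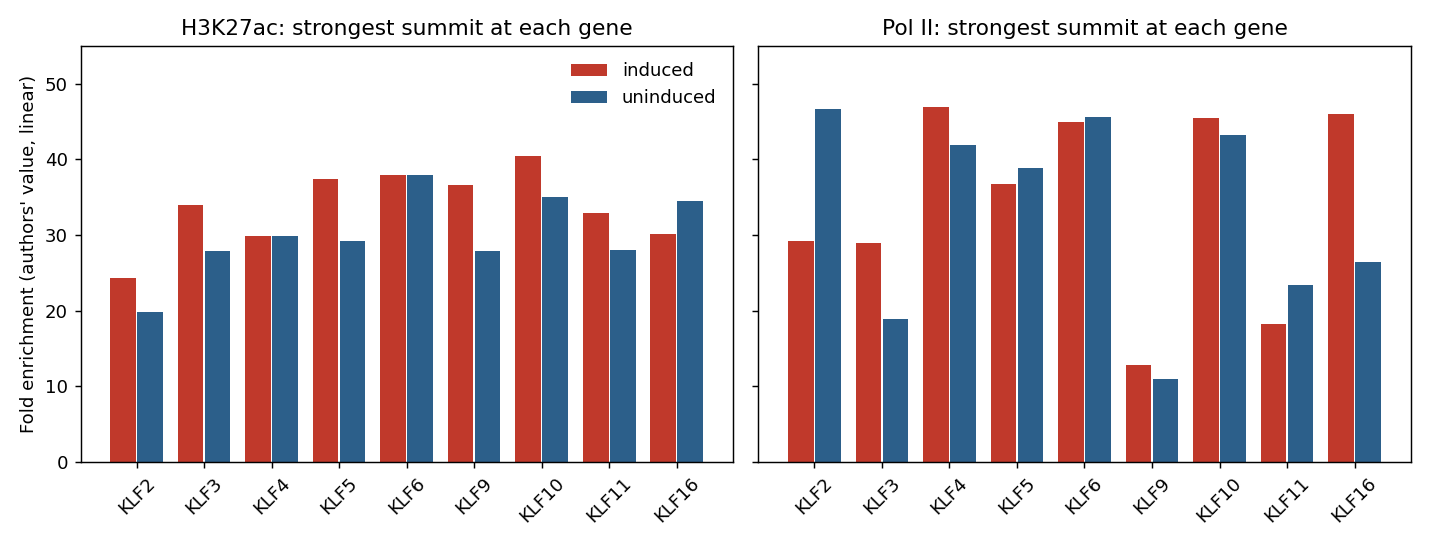
Fold enrichment, the authors' linear value, of the strongest summit by −log10 q within 1 kb of each gene, with red bars for induced and blue bars for uninduced cells and 1 list per bar. Pol II at KLF2 was 29.2 in induced and 46.7 in uninduced cells, and at KLF16 it was 45.9 in induced and 26.4 in uninduced cells.

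KLF4 and KLF5, the pair with the best known roles in the gut epithelium, both carried strong Pol II at the promoter in both conditions. A fold here is the authors' own enrichment over the caller's local background, and folds of separate lists are set side by side without a ratio. The strongest Pol II summit at KLF4 lay 28 bp into the gene in both lists, with a fold of 46.9 in induced cells and 41.9 in uninduced cells. At KLF5 it had a fold of 36.7 in induced cells, 23 bp past the downstream start, and 38.8 in uninduced cells, 38 bp past it. No Pol II region lay over the upstream KLF5 start, at base 73054976 of chromosome 13, in either list, and no Pol II summit lay within 1 kb of it. H3K27ac covered both KLF5 starts in both conditions. In induced cells a small region with a fold of 8.90 held the upstream start and a separate one with a fold of 37.4 held the downstream start. In uninduced cells 1 region held both starts, and its fold of 29.1 was that of a summit 422 bp past the downstream start. Within 1 kb of the upstream start, the strongest H3K27ac summit in induced cells had a fold of 14.8, at 988 bp from that start. In uninduced cells it had a fold of 7.63, at −19 bp. The strong KLF5 signal of both marks lay at the GC-rich window printed above and not at the AT-rich one with TATAAA.

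Along the KLF4 locus H3K27ac regions on both sides of the gene had higher places in induced cells, while the promoter did not. The place of a region is the percentage of regions with a lower −log10 q in lists of a mark that were shortened to equal length (78005 for H3K27ac, 50665 for Pol II). A region's fold is the highest of its summits, and its distance is that of the summit with the highest −log10 q. Regions that were each other's strongest overlap in both lists formed 12 pairs at KLF4, a kind of pair chosen after the data were seen. The induced place was higher by over 10 points in 4 of 12 pairs and lower by over 10 in 0, against 11.7% and 15.4% of all such H3K27ac pairs. The median difference, induced minus uninduced, was 6.29 points at KLF4 and −0.03 points over all pairs. At the promoter, H3K27ac had a fold of 29.8 in induced cells and 29.9 in uninduced cells, and a place of 93.1 in induced cells and 94.0 in uninduced cells.

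The strongest H3K27ac region of the KLF4 window in induced cells was not the promoter. It lay 14.5 kb upstream, at chr9:107502573-107506901, with a fold of 36.7 and a place of 97.1 in induced cells, and a fold of 23.4 and a place of 89.5 in uninduced cells. It overlaps one end of LOC105376206, a long non-coding RNA gene. Its place was higher by 7.61 points in induced cells, under the limit of 10, so it is not among the 4 higher pairs. A region 28.4 kb upstream of KLF4 had a fold of 12.7 and a place of 67.0 in induced cells, against 6.93 and 53.7 in uninduced cells. Downstream, a region 23.8 kb from the 5′ end had a fold of 11.8 and a place of 64.9 in induced cells, against 7.76 and 53.7 in uninduced cells. The remaining 2 of the 4 pairs were weak, with folds of 4.63 and 4.13 in induced cells and 2.98 and 2.46 in uninduced cells. Pol II on the region 14.5 kb upstream had a lower place in induced cells, with a fold of 3.69 and a place of 52.8 in induced cells, where it was split in pieces, and 7.48 and 62.9 in uninduced cells. Past the 3′ end of KLF4, where Pol II regions are known to mark termination, a pair of overlapping regions had a fold of 6.86 and a place of 65.1 in induced cells, against 5.50 and 53.3 in uninduced cells. The strongest uninduced region within 5 kb past that end was another one, with a fold of 5.92 and a place of 59.1. Its induced partner had a fold of 5.61 and a place of 57.9.

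**Figure D2:**
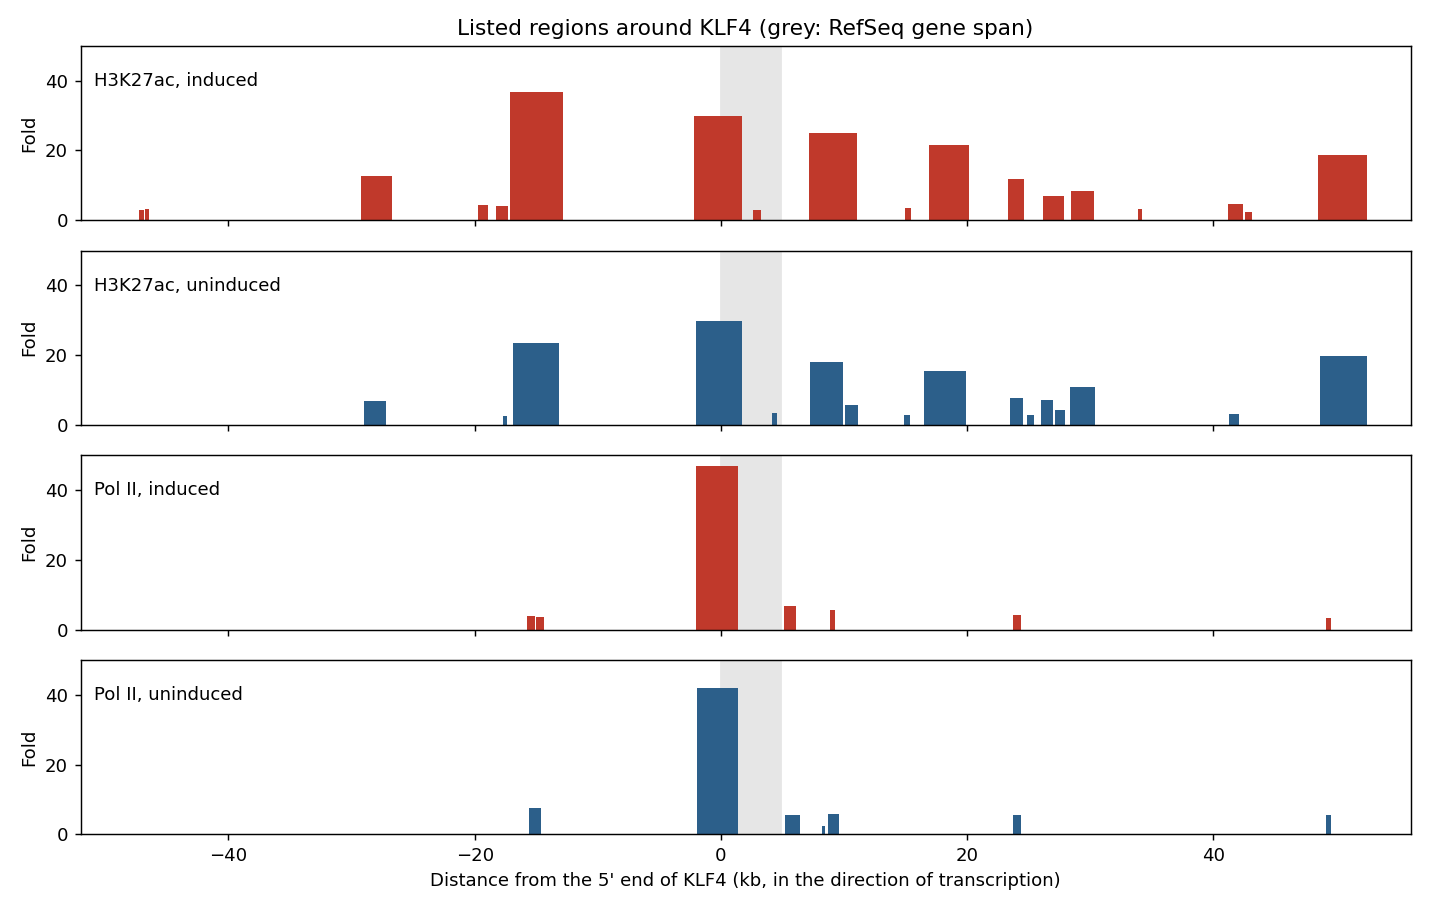
Listed regions within 50 kb of KLF4, with distance from its 5′ end in kb on the x axis (positive in the direction of transcription), the region's fold on the y axis, and the gene shaded grey. The H3K27ac region 14.5 kb upstream reaches a fold of 36.7 in induced cells and 23.4 in uninduced cells, while the region over the promoter is at 29.8 in induced and 29.9 in uninduced cells.

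KLF5 has a cluster of enhancers downstream that is known for its duplication or high activity in epithelial cancers. In these cells 47 H3K27ac regions in induced cells and 32 in uninduced cells lay within 300 kb downstream, covering 78.1 kb in induced cells and 70.4 kb in uninduced cells. Of these, 12 of 47 in induced cells and 1 of 32 in uninduced cells had no partner, where the whole lists had 12.3% in induced cells and 14.5% in uninduced cells. The strongest regions of the cluster had close places in both conditions. One at 35.3 kb from the 5′ end had a fold of 29.3 in induced cells and 28.3 in uninduced cells, with a place of 93.5 in induced cells and 96.4 in uninduced cells. Another at 84.8 kb had a fold of 28.0 and a place of 95.0 in induced cells, against 22.8 and 91.5 in uninduced cells. It also carried Pol II, with a fold of 7.67 in induced cells and 6.97 in uninduced cells.

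Middle and weak regions of the KLF5 cluster made up the shifts. Of 29 mutual pairs downstream, the induced place was higher by over 10 points in 7 and lower in 2, against 11.7% and 15.4% of all mutual pairs, with a median difference of 4.63 points against −0.03 over all. All 7 higher pairs of the KLF5 window were downstream of the gene. The largest was 140.9 kb from the 5′ end, at chr13:73195302-73196672 in induced cells, with a fold of 9.84 and a place of 62.4, against 3.26 and 23.8 in uninduced cells. Next came one at 149.3 kb, with a fold of 4.47 and a place of 31.7 in induced cells, against 2.87 and 10.7 in uninduced cells. One at 139.3 kb had a fold of 4.77 and a place of 42.37 in induced cells, against 3.48 and 21.98 in uninduced cells. The largest shift the other way lay 123.7 kb upstream, nearest to PIBF1, with a fold of 2.87 and a place of 9.16 in induced cells, against 3.95 and 30.8 in uninduced cells. Downstream of KLF5 there were 11 Pol II regions in induced cells and 12 in uninduced cells, in lists of 50665 and 57247 regions, and 9 mutual pairs of which 0 were higher and 2 lower by over 10 points. Over all such Pol II pairs 10.5% were higher and 15.2% lower.

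**Figure D3:**
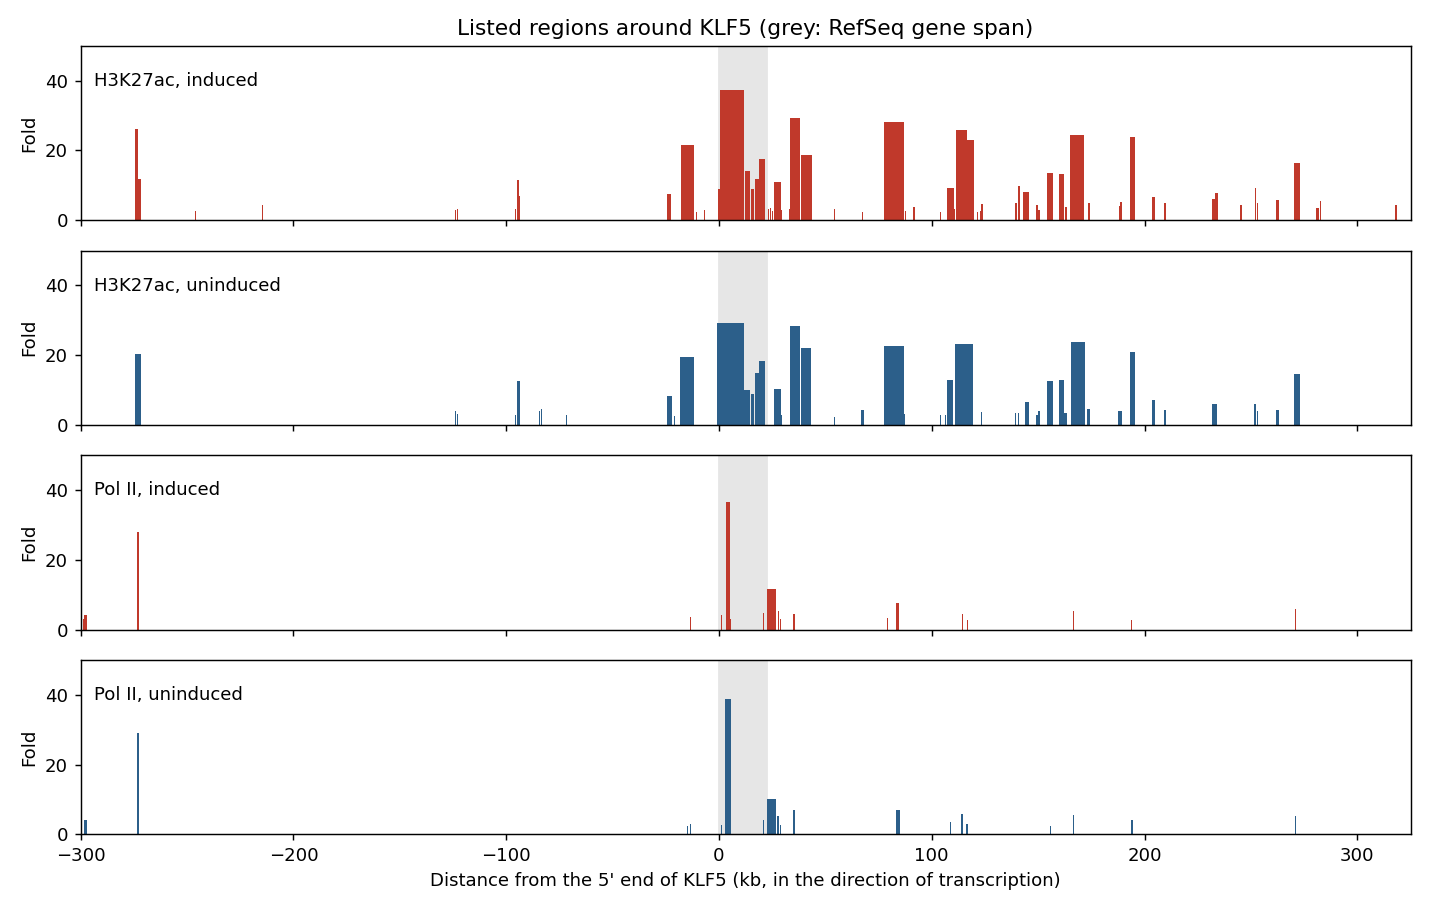
Listed regions within 300 kb of KLF5, drawn by distance from its 5′ end in kb (x axis) and fold (y axis), with the gene in grey. The H3K27ac cluster downstream holds 47 regions in induced cells and 32 in uninduced cells, and Pol II is highest at the downstream start, with a fold of 36.7 in induced and 38.8 in uninduced cells.

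KLF2 and KLF6 are regulators of quiescence and growth, KLF2 best known from endothelium and T cells and KLF6 as a growth restraint in epithelia. At KLF2 the promoter Pol II fold was lower in induced cells, at 29.2 in induced cells and 46.7 in uninduced cells, with a −log10 q of 254 in induced cells and 371 in uninduced cells. Its place was 97.2 in induced cells and 98.8 in uninduced cells, and in both lists it was among the strongest. The H3K27ac region over the KLF2 promoter had a fold of 24.2 in induced cells and 19.8 in uninduced cells. Of 15 mutual H3K27ac pairs at KLF2, 5 were higher in induced cells by over 10 points and 1 lower, against 11.7% and 15.4% over all, with a median of 6.34 points against −0.03. Among them, a region 30.6 kb upstream within KLF2-DT had a fold of 11.9 and a place of 70.6 in induced cells, against 7.59 and 55.3 in uninduced cells. A second, 6.18 kb from the start and just past the gene, had 8.30 and 55.3 in induced cells, against 4.74 and 36.7 in uninduced cells. The largest shift, 26.0 points, was of a weak region 12.3 kb from the start, with folds of 4.23 in induced cells and 2.68 in uninduced cells. One of the 5, 51.2 kb from the start, has its summit within EPS15L1.

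At KLF6 the promoter values were close in both lists and those of a distal region were not. Pol II at the promoter had a fold of 44.97 in induced cells and 45.54 in uninduced cells, and the H3K27ac region over it 39.5 in induced cells and 37.9 in uninduced cells. A region 40.7 kb upstream had an H3K27ac fold of 25.04 and a place of 86.0 in induced cells, against 12.8 and 75.6 in uninduced cells, and Pol II on it had a fold of 3.90 in induced cells and 3.31 in uninduced cells. Of 11 mutual H3K27ac pairs at KLF6, 3 were higher in induced cells by over 10 points and 0 lower, against 11.7% and 15.4% over all. Past the 3′ end of KLF6, Pol II had a fold of 19.5 in induced cells and 14.6 in uninduced cells.

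The remaining 5 genes are mostly repressors: KLF3 recruits the corepressor CtBP, and KLF9, KLF10, KLF11 and KLF16 bind the corepressor Sin3A. KLF10 and KLF11 are also known as early genes of transforming growth factor β, and KLF9 as a target of glucocorticoid receptor. Over all mutual H3K27ac pairs 11.7% were higher in induced cells and 15.4% lower by over 10 points, and beside that there were 0 of 7 beyond 10 points at KLF3, 1 higher and 1 lower of 6 at KLF9, 0 higher and 1 lower of 9 at KLF10, 1 higher of 8 at KLF11 and 1 higher of 14 at KLF16. The lower one at KLF10, at chr8:102622591-102624343 in induced cells, had a fold of 4.06 in induced cells and 7.27 in uninduced cells. The higher one at KLF9 lay 8.41 kb into the gene, with folds of 7.03 in induced cells and 3.74 in uninduced cells. The higher mutual pairs at KLF11 and KLF16 were weak regions nearest to CYS1 and to ADAT3 and SCAMP4. A strong region within KLF16, at chr19:1854790-1859842 in induced cells, was also higher but not in a mutual pair. It had a fold of 26.1 and a place of 86.6 in induced cells, against 14.0 and 76.3 in uninduced cells.

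Promoter Pol II at these 5 genes covered a wide range of folds. KLF10 had a promoter fold of 45.5 in induced cells and 43.2 in uninduced cells. KLF3 had 28.9 in induced cells and 18.9 in uninduced cells, with an unranked −log10 q of 230 in induced cells and 251 in uninduced cells. Ranked within its list, the KLF3 promoter region had a place of 95.7 in induced cells and 91.8 in uninduced cells, in the same direction as the fold. KLF11 had 18.2 in induced cells and 23.4 in uninduced cells. KLF9 was lowest, with 12.7 in induced cells and 10.9 in uninduced cells, and its summit lay 811 bp inside the gene in induced cells and 846 bp in uninduced cells, away from the AT-rich window printed above. The strongest Pol II region of the KLF9 window lay 5.31 kb upstream of the annotated start, with a fold of 22.4 in induced cells and 23.9 in uninduced cells, inside the span of the lncRNA gene KLF9-DT.

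At KLF16 the lists divided the gene differently. In uninduced cells 1 Pol II region of 12.0 kb with 19 summits ran from the start given in the promoter table far upstream inside the gene span, with a fold of 24.8 and its strongest summit 33 bp past that start. In induced cells 5 regions lay in its place, of 0.385 to 4.47 kb, and the strongest had a fold of 13.2 at its strongest summit by −log10 q, which lay at −817 bp from the same start. At the upper end of the gene span, at base 1876120 in induced cells and 1876127 in uninduced cells, the fold was 45.9 in induced cells and 26.4 in uninduced cells. That summit lies under 1 kb from the end of ABHD17A, so the lists cannot assign it to 1 gene.

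**Figure D4:**
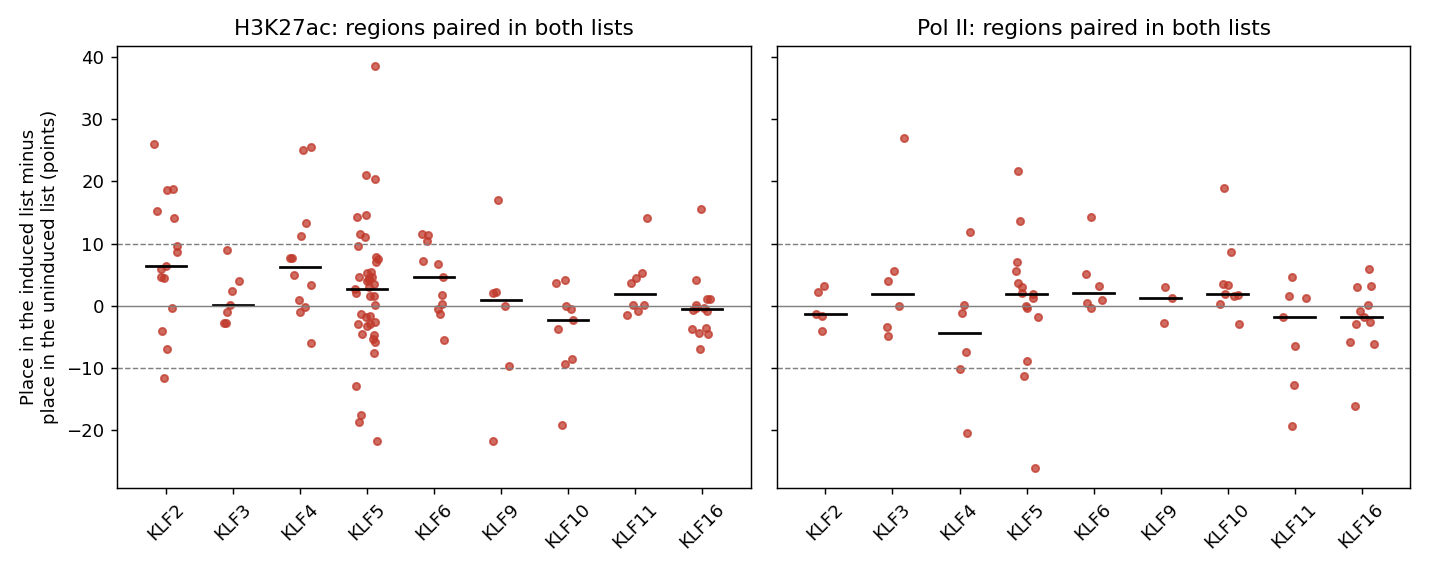
Place in the induced list minus place in the uninduced list, in points, for each mutual pair of regions (red points) at each gene, with the median as a black bar and the limit of 10 points dashed. H3K27ac medians are highest at KLF2 (6.34) and KLF4 (6.29), and Pol II points at these genes lie on both sides of 0.

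Over all 9 genes, 22 of 123 mutual H3K27ac pairs (17.9%, against 11.7% over all) were higher in induced cells by over 10 points and 7 (5.69%, against 15.4%) lower, with a median of 1.75 points against −0.03. In lists of only the 20000 strongest regions both shares lay above the background: of 43 pairs, each induced region with its strongest overlap, 30.2% were higher, against 24.0% over all, and 25.6% lower, against 22.7%. Counting each induced region with its strongest overlap, as first defined, gave 23 of 141 pairs higher (16.3%, against 10.5% over all) and 19 lower (13.5%, against 22.7%). Of these 19, 12 were pieces of a region that is whole in the uninduced list, which places a small piece against a large region. For Pol II, 6 of 68 mutual pairs were higher (8.82%, against 10.5% over all) and 7 lower (10.3%, against 15.2%), with a median of 0.65 points against −0.38 over all pairs. With each induced region and its strongest overlap, 6 of 83 were higher (7.23%, against 8.94%) and 20 lower (24.1%, against 27.1%), of which 13 were pieces.

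The share of each gene covered by Pol II regions was lower in induced cells at 9 of 9 genes, as it was at 77.9% of 14091 genes scored. The median difference over all genes was −0.51 points. KLF6 had 36.5% covered in induced cells and 48.0% in uninduced cells, and KLF16 53.4% in induced cells and 64.6% in uninduced cells. These 2 of 9 lay more than 5 points below the median, against 13.6% of all genes. None of the 9 was more than 5 points above it, against 1.45%, and none was over 25 points below it, against 0.816%, or above it, against 0.0284%. In lists of equal length 8 of 9 genes were lower, against 74.6% of all genes scored, and KLF2 was higher, with 49.5% in induced cells and 42.6% in uninduced cells. KLF5 had 13.4% in induced cells and 17.4% in uninduced cells, and KLF2 49.5% in induced cells and 52.4% in uninduced cells. KLF10 had 31.1% in induced cells and 32.4% in uninduced cells, and KLF3 13.8% in induced cells and 14.9% in uninduced cells. At KLF4, with 28.7% in induced cells and 28.9% in uninduced cells, at KLF9 and at KLF11 the difference was under 0.5 points.

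H3K27ac coverage of the genes moved little with a pair of exceptions. It was higher in induced cells at 6 genes and lower at 3, where 55.8% of 14626 genes scored were lower. KLF2 had 81.0% covered in induced cells and 60.9% in uninduced cells, and KLF10 61.8% in induced cells and 49.1% in uninduced cells. These 2 of 9 lay more than 5 points above the median, against 3.16% of genes, and none lay over 5 points below it, against 4.27%. None lay over 25 points below or above the median, against 0.0342% and 0.0615% of genes. When only a −log10 q of 5 or more counted, the KLF2 difference was 5.98 points and the KLF10 difference 3.23, so weak regions made up much of both. In lists of equal length the KLF10 difference was 7.58 points. At KLF4, with 46.8% in induced cells and 43.0% in uninduced cells over the full lists, that limit gave 34.7% in induced cells and 43.0% in uninduced cells. The same number of bases makes more points in a short gene, and KLF2 spans 3.86 kb and KLF10 6.94 kb. With 50 kb added on either side, KLF2 had 27.9% covered in induced cells and 23.3% in uninduced cells. KLF10 then went the other way, with 24.7% in induced cells and 26.3% in uninduced cells.

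**Figure D5:**
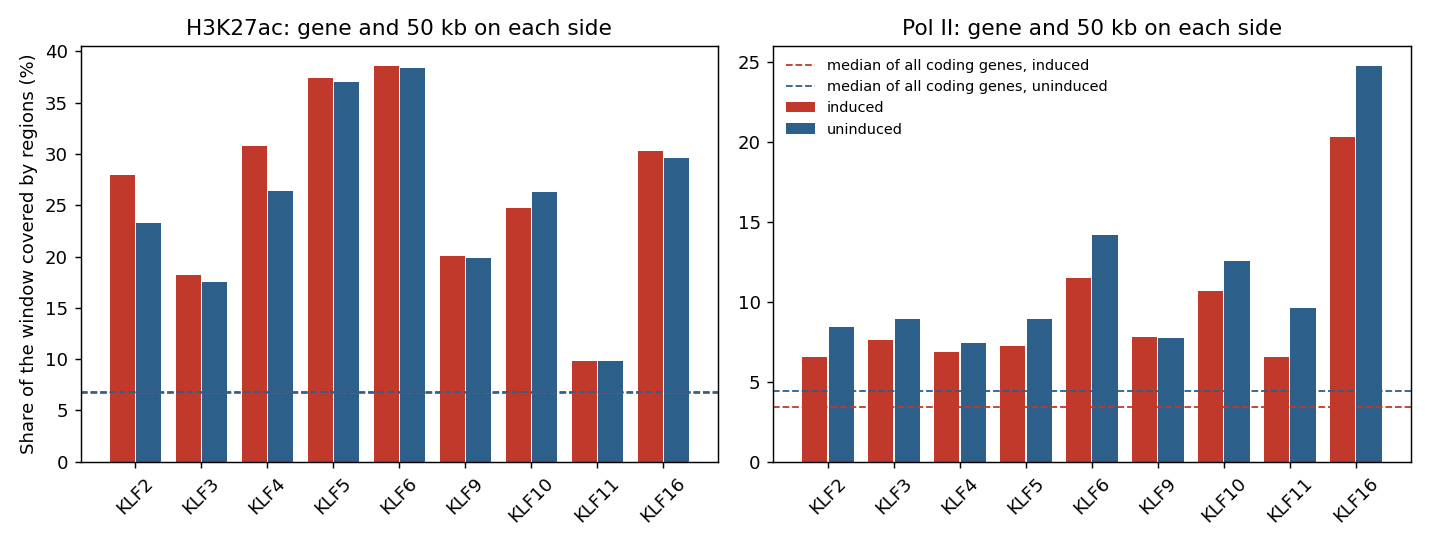
Share of each gene with 50 kb on either side that H3K27ac regions (left) and Pol II regions (right) cover, in percent, for induced (red) and uninduced (blue) cells, with dashed medians over all coding genes. All 9 genes lie above the H3K27ac medians (6.67% induced, 6.83% uninduced), from KLF11 (9.87% induced, 9.86% uninduced) to KLF6 (38.6% induced, 38.3% uninduced).

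Most of the genes lay in windows rich in H3K27ac, and KLF11 was the exception. The median share of the gene and its 50 kb on either side under H3K27ac was 27.9% in induced cells and 26.3% in uninduced cells, against 6.67% in induced cells and 6.83% in uninduced cells over all 19974 genes. KLF6 with 38.6% in induced cells and 38.3% in uninduced cells and KLF5 with 37.4% in induced cells and 37.0% in uninduced cells were highest, at percentiles of 98.5 and 98.3 in induced cells. KLF4 had 30.7% in induced cells and 26.4% in uninduced cells, and KLF2 27.9% in induced cells and 23.3% in uninduced cells. KLF11 was lowest, with 9.87% in induced cells and 9.86% in uninduced cells, at percentiles of 63.9 in induced cells and 63.5 in uninduced cells. Other coding genes lie in 5 of the windows, so part of this cover may belong to them. For Pol II the members' median was 7.64% in induced cells and 8.97% in uninduced cells, against 3.44% in induced cells and 4.44% in uninduced cells over all genes. Of the Pol II regions in the windows, 73 of 92 in induced cells (79.3%) and 76 of 97 in uninduced cells (78.4%) lay on H3K27ac regions, against 62.3% in each of the whole lists.

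Other genes of the family are given for scale. The 8 other KLF genes had a median H3K27ac cover of 5.95% of the gene and 50 kb on either side in induced cells and 5.76% in uninduced cells, and the 8 SP genes 13.5% in induced cells and 14.1% in uninduced cells. These windows differ in size with the gene, from KLF2 at 3.86 kb to KLF12 at 620 kb. By strongest H3K27ac summit the 8 other KLF genes had a median place of 21.8 in each condition. Yet KLF7 was at 99.2 in induced cells and 99.7 in uninduced cells, KLF12 at 97.9 and 88.8, and KLF13 at 92.4 and 93.8. Pol II coverage was lower in induced cells at 7 and higher at 1 of the 8 other KLF genes, and lower at 4 and higher at 3 of the 7 SP genes scored, where 77.9% of all genes scored were lower. The largest difference among these was at SP8, with 14.7% in induced cells and 27.6% in uninduced cells. KLF14 had 11.3% in induced cells and 13.9% in uninduced cells, and KLF1 41.4% in induced cells and 40.8% in uninduced cells.

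Pol II past the 3′ end was looked at for the 7 genes with a known strand, a measure added after the data were seen. A region within 5 kb past the end was listed at 7 of 7 in induced cells and 6 of 7 in uninduced cells, KLF9 being the exception, where 60.5% of all genes with Pol II near the 5′ end had one in induced cells and 64.7% in uninduced cells. The KLF9 region of induced cells was weak, with a length of 0.42 kb, a fold of 2.81, a −log10 q of 2.36 and a place of 8.84. At KLF2 the fold was 14.0 in induced cells and 12.6 in uninduced cells, and at KLF5 11.7 in induced cells and 10.1 in uninduced cells. At KLF11 and KLF16 the regions lie at CYS1 and REXO1.

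By their places in the 4 lists among 14093 genes, the genes most like KLF4 were RPL5, H2BC5 and GSTM3, at Euclidean distances of 1.59, 2.09 and 3.02 points. For KLF5 they were ATP1B1, SOX9 and CLDN7, at 1.499, 2.292 and 2.449 points. The likeness is over 4 lists only.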

How the data were processed

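ChIP-seq of H3K27ac and Pol II in DLD1 cells was analysed, as 4 deposited lists of regions (induced and uninduced for each antibody). MACS2 2.1.1.20160309 is named in the submitters' processing notes, as are deepTools 3.5.0, SAMtools 1.10, BWA 0.7.17-r1188 and the builds hg19 and hg38, with no role for any. Positions are on GRCh38, since regions on chromosome 17 reach 83228308. Each deposited summit has a fold (a ratio over local background), −log10 p and −log10 q, and a score, as made by the authors. The −log10 p and the score were not used. The labels name 1 list for both samples of a group, and the sources used here do not say how those samples were combined. No per-sample column was left unmatched.

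Only the 22 autosomes and X were kept, which removed no more than 0.603% of summits. Rows of a region were collapsed to 1 with its highest −log10 q and fold. Overlap counts were checked against bedtools, and the steps were tested on simulated data. Python 3.11.15 and pandas 2.3.3 were used. No replicate, p-value or test was available, and values describe 1 list per condition. Genes were those of the RefSeq table (GRCh38.p14), which has no strand. Strand came from the promoter table, so KLF3 and KLF10 have no 5′ distances. Promoter sequences are RefSeq's. All 9 members are named. For each window the strongest region and the largest place shifts were named by rule, up to 3 each way. The members and lists were chosen with earlier results of these data known. Alternatives covered thresholds, overlap rules, window sizes, ranking by fold and list lengths. Depths of 40 to 55M reads per sample, per the labels, limit weak regions most.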

Additional observations from a re-analysis of the deposited data

How the results depend on the processing

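No paired analysis was possible because a list stands for a whole group, and for the same reason no replicate could be left out. The shares without a partner depended on weak regions. Each value is followed by the same share over the whole lists. With a −log10 q of at least 5 in both lists, the shares of regions without a partner were 9.52% against 9.04% (H3K27ac, induced), 0% against 5.41% (Pol II, induced) and 9.09% against 24.9% (Pol II, uninduced). With that limit on 1 list against the full other list they were 5.56% against 4.37% (H3K27ac, induced), 4.13% against 6.75% (H3K27ac, uninduced), 0% against 1.80% (Pol II, induced) and 4.55% against 12.1% (Pol II, uninduced). With regions within 1 kb counted as shared they were 8.99% against 6.93% (H3K27ac, induced), 3.26% against 4.53% (Pol II, induced) and 13.4% against 18.9% (Pol II, uninduced). The Pol II uninduced share was 17.6% against 24.8% in lists of equal length, and against 30.4% it was 17.3% in windows of 20 kb (KLF5 50 kb) and 13.5% within the gene or 5 kb of it. With a −log10 q of 10 against 5, strong regions alone were 1 of 107 (H3K27ac, induced; 2.44% over the list), 1 of 95 (H3K27ac, uninduced; 4.87%) and 3 of 58 (Pol II, uninduced; 8.02%). H3K27ac pairs higher in induced cells were 4.26% against 2.92% at a limit of 20 points, 28.4% against 21.3% at 5 points and 30.2% against 24.0% in lists of 20000 regions. Lower ones were 7.80% against 12.1%, 21.3% against 33.4% and, turning to above the background in lists of 20000, 25.6% against 22.7%. Pol II pairs at 20 points were 2.41% higher against 3.35% and 15.7% lower against 17.4%, and in lists of 20000 14.3% lower against 13.1%, also above the background. With mutual pairs, lower ones were 5.69% against 15.4% for H3K27ac and 10.3% against 15.2% for Pol II. The cause was not tested. When only a −log10 q of 5 or more counted, the H3K27ac differences at KLF4, KLF2 and KLF10 were −8.28, 5.98 and 3.23 points. In lists of equal length the H3K27ac difference at KLF10 was 7.58 points and the Pol II difference at KLF2 6.89 points. The other 62 alternative values of the main results stayed within their limits, which concern the value alone and not its distance from the whole-list share. In windows of 20 kb (KLF5 50 kb), H3K27ac pairs higher in induced cells were 12.7% against 10.5%. Where the KLF gene was the nearest coding gene they were 18.2% against 10.5%. Pol II pairs higher in induced cells turned to above the background, 10% against 8.94% in the 20 kb windows and 9.52% against 8.94% by nearest gene.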
